A study of Sus scrofa with 15 samples.

Results

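A set of 9 genes that interferon switches on was followed in pig muscle: IFIH1, DDX58, IRF9, ISG15, USP18, MX1, MX2, RSAD2 and ISG12(A). They were found by name among the 43603 non-control probes of a 1-colour Agilent pig array, and matched 19 probes. All 19 probes passed the filter on dim signal, so all 9 members belong to the 4655 genes tested. IRF9 and 1 probe of MX2 were found by their description, and RSAD2, listed on the array under an older name, by its RefSeq accession. The list was drawn up with earlier results of these data known, in particular a difference between 2 runs of array numbers, so the members count as chosen by their levels in that contrast, and it is described here without a test of theirs.

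Longissimus muscle, a back muscle, came from 15 pigs weighing 20 kg and fed ad libitum, with 1 pig per array. The low_RFI line (RFIneg, n = 7) and the high_RFI line (RFIpl, n = 8) differ in residual feed intake (RFI), a measure of feed efficiency in which a low value marks the efficient animal. The array names carry numbers from 55 to 62 (3 low_RFI and 4 high_RFI pigs) or from 1 to 8 (4 low_RFI and 4 high_RFI pigs), and the labels do not say what these numbers mean. The sex and exact age of the pigs are not given in the sources used here. Values are levels, the log2 processed signal of a probe minus its array's 75th percentile, so a difference of 1 is a 2-fold difference in signal.

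Interferons are secreted signals that tell cells of a viral threat. Type I interferons bind a receptor made of IFNAR1 and IFNAR2, the kinases JAK1 and TYK2 then phosphorylate STAT proteins, and these join IRF9 to form the complex ISGF3, which switches on interferon-stimulated genes. IFIH1 (MDA5) and DDX58 (RIG-I) sense viral RNA in the cytoplasm and start the production of interferon. ISG15 is a ubiquitin-like protein that is attached to other proteins, and USP18 removes it and also damps signalling from the receptor. MX1 and MX2 are GTPases that block viruses inside the cell, RSAD2 (viperin) makes a nucleotide that stops viral RNA synthesis, and ISG12(A) belongs to the IFI27 family of small interferon-induced membrane proteins.

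To be read beside the values, 5 of the probes are printed, from the array's own design, to show which stretches of these members were read. They are given 5′ to 3′ in lower case with the first base of the probe in the transcript record.
ISG15, base 565: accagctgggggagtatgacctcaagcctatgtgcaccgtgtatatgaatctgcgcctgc
USP18, base 391: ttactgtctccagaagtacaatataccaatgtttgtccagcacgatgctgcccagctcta
IFIH1, base 3012: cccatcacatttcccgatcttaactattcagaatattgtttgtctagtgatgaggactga
MX1, base 1160: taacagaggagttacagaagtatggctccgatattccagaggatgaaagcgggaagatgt
MX1, base 1934: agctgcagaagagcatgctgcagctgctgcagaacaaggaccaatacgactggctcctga
Each is 60 bases long. The ISG15 probe, the only one of its gene, and the IFIH1 probe stand for their genes by the rule given below. The USP18 probe is the dimmer of 2, and the MX1 probes are the 2 dimmest of 5.

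Of the 19 probes, 18 were well above background on all 15 arrays, and none was saturated. The exception was the RSAD2 probe at base 1256, which was well above background on 12 arrays. Each gene is represented below by its probe of highest mean level, and for all 9 genes that probe was well above background on every array. Over the whole array, 29716 to 34644 probes were well above background in pigs numbered 55-62 and 26908 to 33088 in pigs numbered 1-8. The 75th percentile of the signal ran from 336 to 439 in pigs numbered 55-62 and from 318 to 396 in pigs numbered 1-8. Muscle fibre markers were among the brightest genes: 12 of 13 listed were tested, and 11 of them lay at or above the 98.6th percentile of gene levels, with MB (myoglobin) at the 86.7th.

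**Figure D1:**
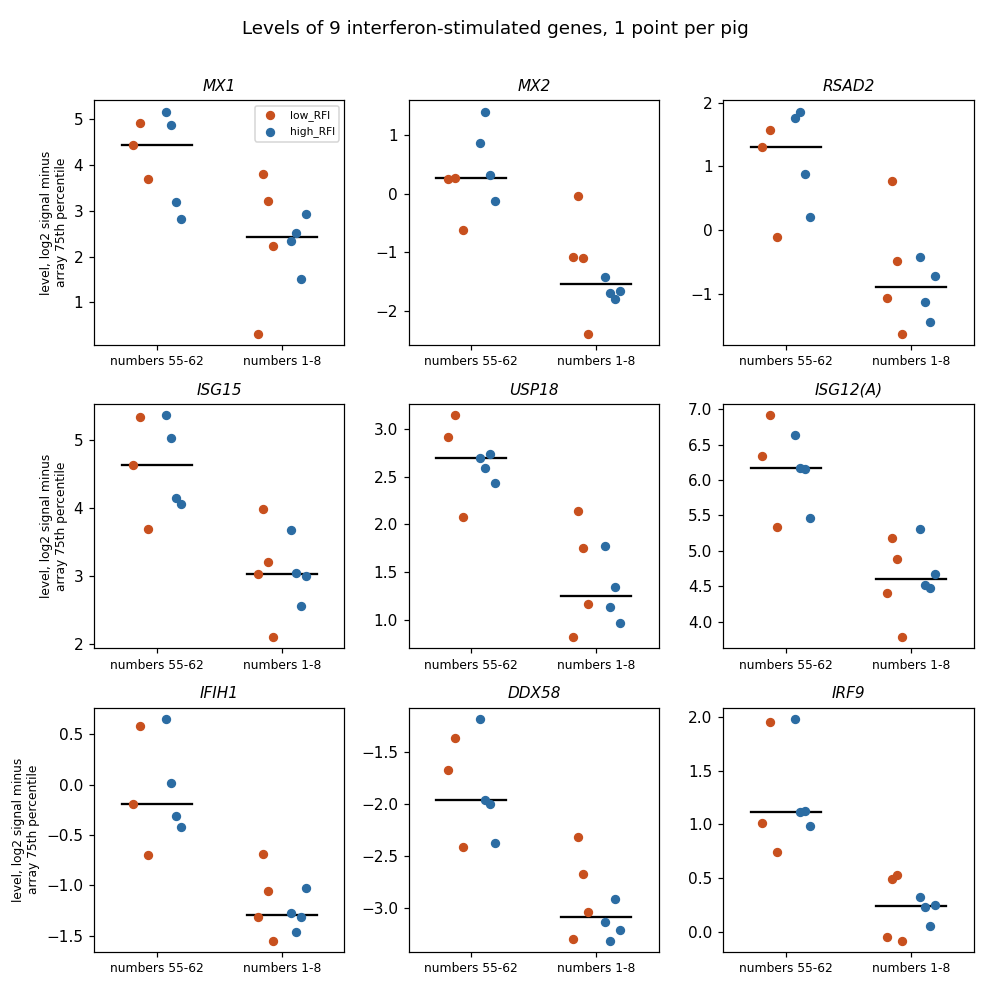
Level of each of the 9 genes (y axes, log2 signal minus the array's 75th percentile, a separate scale per gene) in pigs numbered 55-62 (left) and 1-8 (right); orange points are low_RFI pigs, blue points high_RFI pigs, and the bar is the median of the 7 or 8 pigs. For ISG12(A) and IRF9 the 7 pigs on the left all lie above the 8 on the right, while orange and blue points overlap in every panel.

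The sensors were compared first. IFIH1 had levels of -0.70 at the lowest, -0.19 at the median and 0.65 at the highest in pigs numbered 55-62, against -1.55, -1.30 and -0.69 in pigs numbered 1-8. The difference, 55-62 minus 1-8 with line in the model, was 1.16 ± 0.20 (SE, n = 7 and 8), or 2.24-fold. The groups touched at a single pair of pigs, low_RFI pig 2 of the 1-8 run lying just above low_RFI pig 7 of the 55-62 run. DDX58 had levels of -2.42, -1.97 and -1.18 (lowest, median, highest) in pigs numbered 55-62, against -3.31, -3.08 and -2.32 in pigs numbered 1-8, a difference of 1.14 ± 0.20 (SE) or 2.21-fold. Here low_RFI pig 2 lay above both low_RFI pig 7 and high_RFI pig 8. The 2 sensors thus differed by a similar amount between the runs with the scanner's own background correction, although DDX58 was read at signals of only 66.1 to 194 units in pigs numbered 55-62 and 35.3 to 78.6 units in pigs numbered 1-8.

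IRF9, the DNA-binding subunit of ISGF3, had levels of 0.74, 1.11 and 1.98 (lowest, median, highest) in pigs numbered 55-62, against -0.08, 0.24 and 0.53 in pigs numbered 1-8. The difference was 1.05 ± 0.19 (SE), or 2.07-fold. Every pig numbered 55-62 lay above every pig numbered 1-8. Low_RFI pig 6 and high_RFI pig 5 stood well above the other 5 pigs of their run.

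ISG15 and its protease USP18 were compared next. ISG15 had levels of 3.69, 4.64 and 5.37 in pigs numbered 55-62, against 2.1, 3.04 and 3.98 in pigs numbered 1-8 (lowest, median, highest), a difference of 1.53 ± 0.31 (SE) or 2.89-fold. USP18 had levels of 2.08, 2.70 and 3.15 in pigs numbered 55-62, against 0.82, 1.25 and 2.14 in pigs numbered 1-8, a difference of 1.28 ± 0.20 (SE) or 2.43-fold. For both genes the only overlap was low_RFI pig 2 lying above low_RFI pig 7.

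Among the effectors, MX1 spread the most. Its levels were 2.83, 4.43 and 5.16 (lowest, median, highest) in pigs numbered 55-62, against 0.32, 2.43 and 3.79 in pigs numbered 1-8. The difference was 1.81 ± 0.49 (SE), or 3.51-fold. Low_RFI pig 1, at 0.32, stood apart from the other 7 pigs of its run, which lay from 1.52 to 3.79, and it was the lowest of all pigs on each of the 5 MX1 probes. Low_RFI pigs 2 and 3 and high_RFI pig 4 of the 1-8 run overlapped low_RFI pig 7 and high_RFI pigs 7 and 8 of the 55-62 run. MX1 was higher in the 55-62 pig in 50 of the 56 pairs that can be formed across the runs, the fewest of the 9 genes.

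MX2, a relative of MX1, had levels of -0.62, 0.27 and 1.40 in pigs numbered 55-62, against -2.38, -1.54 and -0.04 in pigs numbered 1-8 (lowest, median, highest). The difference was 1.74 ± 0.33 (SE), or 3.33-fold. RSAD2 had levels of -0.11, 1.30 and 1.86 in pigs numbered 55-62, against -1.63, -0.90 and 0.76 in pigs numbered 1-8, a difference of 1.84 ± 0.37 (SE) or 3.57-fold. In both genes low_RFI pig 2 lay above low_RFI pig 7 and high_RFI pig 8, and no other pigs crossed. ISG12(A) had levels of 5.34, 6.16 and 6.91 in pigs numbered 55-62, against 3.78, 4.6 and 5.30 in pigs numbered 1-8, a difference of 1.49 ± 0.26 (SE) or 2.80-fold, with no overlap.

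Across the list, 9 of 9 genes were higher in pigs numbered 55-62, with a median difference of 1.49, where the median over all 4655 genes was -0.04. The runs did not overlap for 2 of the 9, ISG12(A) and IRF9, where 0.516% of all genes were higher without overlap and 0.473% lower. Low_RFI pig 2 took part in every overlap outside MX1: of the 7 genes whose runs overlapped, only 1, MX1, still overlapped when that pig was set aside. These shares describe the contrast by which the genes were chosen.

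The run difference had the same sign inside each line and each slide. In low_RFI pigs (3 against 4) it ran from 1.01 for DDX58 to 1.95 for MX1, and in high_RFI pigs (4 against 4) from 1.08 for IRF9 to 2.27 for MX2. The 4 slides, known from the file headers, each hold both lines and both runs, and all 36 within-slide differences (9 genes on 4 slides) were positive, from 0.58 for DDX58 on slide 4 to 3.74 for MX1 on slide 2. The genes were chosen by this contrast and vary together over pigs, so the 36 signs are not separate results. Slide 2 holds 3 pigs, low_RFI pig 1 and high_RFI pig 2 of the 1-8 run and high_RFI pig 5 of the 55-62 run. Its run differences thus rest on 1 pig numbered 55-62. Without low_RFI pig 1 the MX1 run difference over the remaining 14 pigs was 1.51, and leaving out each pig in turn gave 1.51 to 2.02 for MX1 and 0.91 to 2.08 over the 9 genes.

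**Figure D2:**
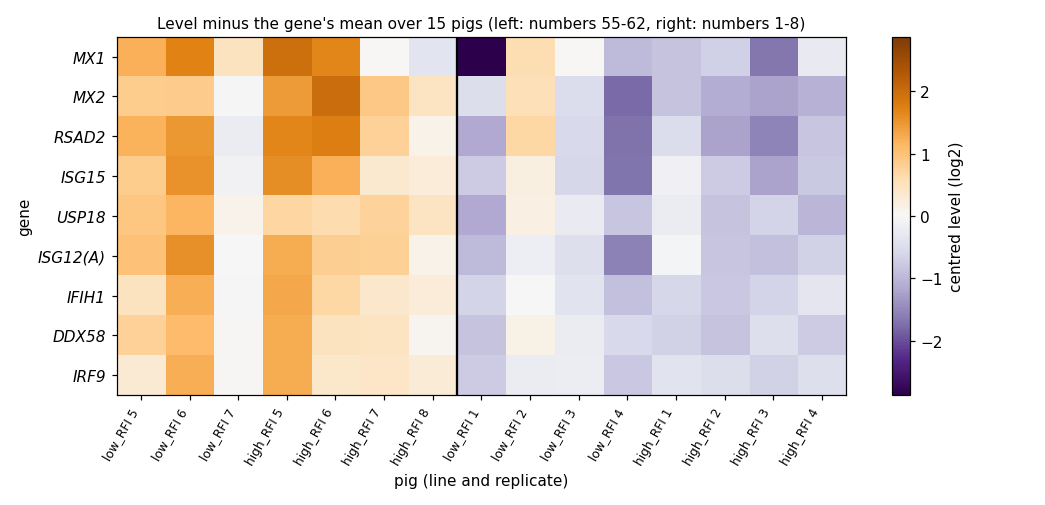
Level of each gene (rows) in each pig (columns) minus the gene's mean over the 15 pigs, in log2 units on the colour scale; pigs numbered 55-62 stand left of the line and pigs numbered 1-8 right of it. High_RFI pig 5 and low_RFI pig 6 are orange in every row, the darkest purple cell is MX1 in low_RFI pig 1, and low_RFI pig 2 is the column right of the line with the most orange.

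The genes moved together from pig to pig. Averaged over the 9 genes, each centred on its own mean, high_RFI pig 5 stood highest at 1.39, followed by low_RFI pig 6 at 1.32 and high_RFI pig 6 at 1.08. Low_RFI pig 4 stood lowest at -1.20, followed by low_RFI pig 1 at -1.07 and high_RFI pig 3 at -0.99. The highest pig of the 1-8 run, low_RFI pig 2 at 0.21, lay above low_RFI pig 7 (0.03) and high_RFI pig 8 (0.19), the lowest of the 55-62 run. High_RFI pig 5 was the highest pig for 5 genes, low_RFI pig 6 and high_RFI pig 6 for 2 each, and low_RFI pig 4 was the lowest for 6.

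Pearson correlations over pigs were computed for all 36 pairs of members and are given as a description, since all genes of a pig share 1 array and its scaling. Over the 15 pigs they had a median of 0.90, with a range of 0.76 to 0.97. Inside the 55-62 run (n = 7) the median was 0.82, from 0.42 to 0.97, and inside the 1-8 run (n = 8) it was 0.71, from 0.35 to 0.93. In the 55-62 run MX2 had the lowest median correlation with the other 8 members, at 0.59, and ISG15 the highest, at 0.89. In the 1-8 run MX1 had the lowest, at 0.63, and RSAD2 the highest, at 0.82.

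Of all other tested genes, 8 came closest to the members' mean by Spearman's rho over the 15 pigs: PARP12 (rho 0.99), DDX60 (0.97), LGALS9 (0.97), IFIT3 (0.97), STAT2 (0.93), GBP2 (0.93), EIF2AK2 (0.92) and TRIM46 (0.92). Of these, 7 stood in the list of interferon pathway genes used below, and TRIM46 did not. That list was written with earlier results of these data known, and rho over the 15 pigs takes in the difference between the runs. The 7 are therefore not an independent check. Pearson's r was 0.98 for PARP12 and LGALS9, the extremes being 0.85 for STAT2 and GBP2. Without high_RFI pig 5 and low_RFI pig 6, the pigs farthest from the median, r ran from 0.85 for STAT2 to 0.98 for PARP12. Inside the runs PARP12 had r = 0.95 over the 7 pigs numbered 55-62 and 0.98 over the 8 numbered 1-8, and TRIM46 had 0.92 and 0.71. GBP2 had 0.73 and 0.86, and STAT2 0.76 and 0.90.

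The 2 lines were then compared, which is the comparison the study was designed for. MX1 had levels of 0.32, 3.69 and 4.92 (lowest, median, highest) in low_RFI pigs, against 1.52, 2.88 and 5.16 in high_RFI pigs. RSAD2 had -1.63, -0.11 and 1.57 in low_RFI pigs, against -1.45, -0.10 and 1.86 in high_RFI pigs. ISG12(A) had 3.78, 5.18 and 6.91 in low_RFI pigs, against 4.47, 5.39 and 6.63 in high_RFI pigs. In each of the 3 genes the lines overlapped over most of their range.

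In limma over all genes, 0 of the 9 members differed between the lines at an adjusted p under 0.05, and 0 of 9 at an unadjusted p under 0.05, where 0.0215% and 7.13% of all genes did. The differences, low_RFI minus high_RFI, ran from -0.16 for ISG12(A) to 0.11 for DDX58, with adjusted p-values of 0.994 to 0.999. They were positive for MX1, USP18 and DDX58 and negative for the other 6 members, with a median of -0.07, against 0.01 over all 4655 genes. No member's lines were free of overlap, where 0.129% of all genes' lines were. The intervals are wide: the 95% interval of the line difference ran from -1.37 to 1.47 for MX1 and from -0.80 to 0.59 for IRF9, the narrowest. Number run was not in this model, so the difference between the runs is part of that width. This fit leaves room for a line difference of that size, and the width with number run in the model is not given here.

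With normexp, DDX58 turned to -0.09, and the members' smallest adjusted p was 0.899. Inside the 55-62 run the line difference ran from -0.65 for MX2 to 0.33 for MX1, and inside the 1-8 run from -0.18 for ISG12(A) to 0.50 for MX2. MX2 had means of -0.03 in low_RFI pigs and 0.62 in high_RFI pigs of the 55-62 run, and of -1.15 in low_RFI pigs and -1.65 in high_RFI pigs of the 1-8 run. Whether the line difference itself differed between the runs was tested as an interaction over all genes. For MX2 this was -1.15 ± 0.62 (SE) with an adjusted p of 0.908, the smallest among the members; 0% of all genes passed the adjusted threshold and 5.63% an unadjusted p under 0.05.

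**Figure D3:**
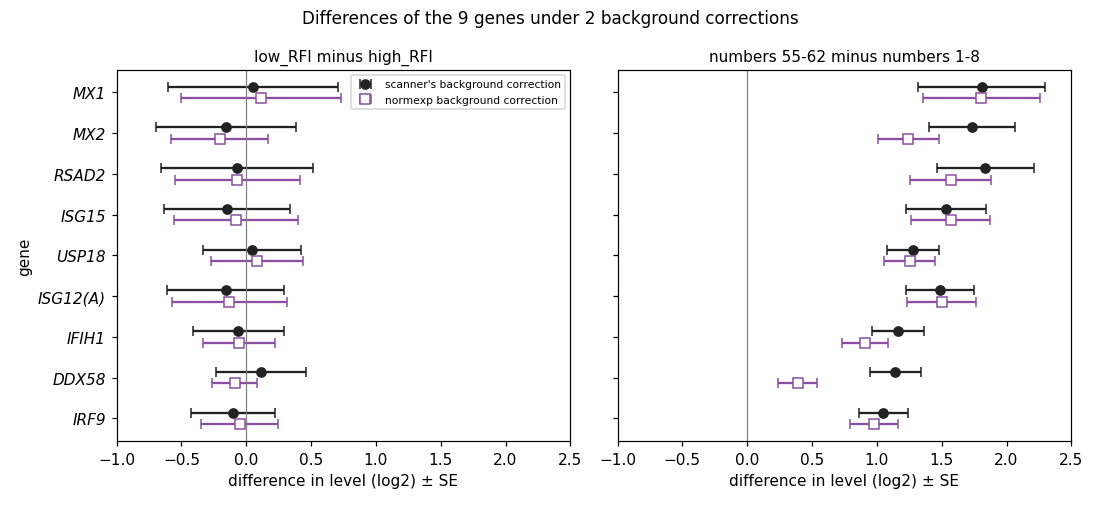
Difference in level (x axis, log2, points with bars of 1 SE) of the 9 genes between low_RFI and high_RFI pigs (left) and between pigs numbered 55-62 and 1-8 (right), with the scanner's background correction (filled circles) and with normexp (open squares). On the left all bars cross 0; on the right all points lie above 0, and DDX58 lies at 1.14 and 0.39 under the 2 corrections.

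Another background correction, normexp on the raw spot and background signals with an offset of 50, left 9 of 9 run differences positive and lowered some of them. ISG15 gave 1.57, ISG12(A) 1.5 and MX1 1.81, each close to its first value. RSAD2 gave 1.57, MX2 1.24, USP18 1.26, IRF9 0.98 and IFIH1 0.91. DDX58, the dimmest, gave 0.39 ± 0.15 (SE), or 1.31-fold, so its size depends on how background is removed.

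Probes of the same gene agreed in sign throughout, and 19 of 19 were higher in pigs numbered 55-62 under both corrections. The 5 MX1 probes gave 1.32 to 1.83, and 0.81 to 1.83 with normexp. The 3 MX2 probes gave 1.38 to 1.74, and 0.98 to 1.24 with normexp. The USP18 probe at base 391 gave 0.66 and 0.13 with normexp, where the probe at base 1496 gave 1.28 and 1.26. The RSAD2 probe at base 1256 gave 2.17 and 0.66, where the one at base 2741 gave 1.84 and 1.57. For IFIH1, the printed probe at base 3012 gave 1.16 and 0.91 and the one at base 2130 0.97 and 0.32. For the line comparison, 8 probes were positive and 11 negative, from -0.19 to 0.18, with a smallest adjusted p over all probes of 0.989; the 2 DDX58 probes disagreed in sign, at 0.11 and -0.13.

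**Figure D4:**
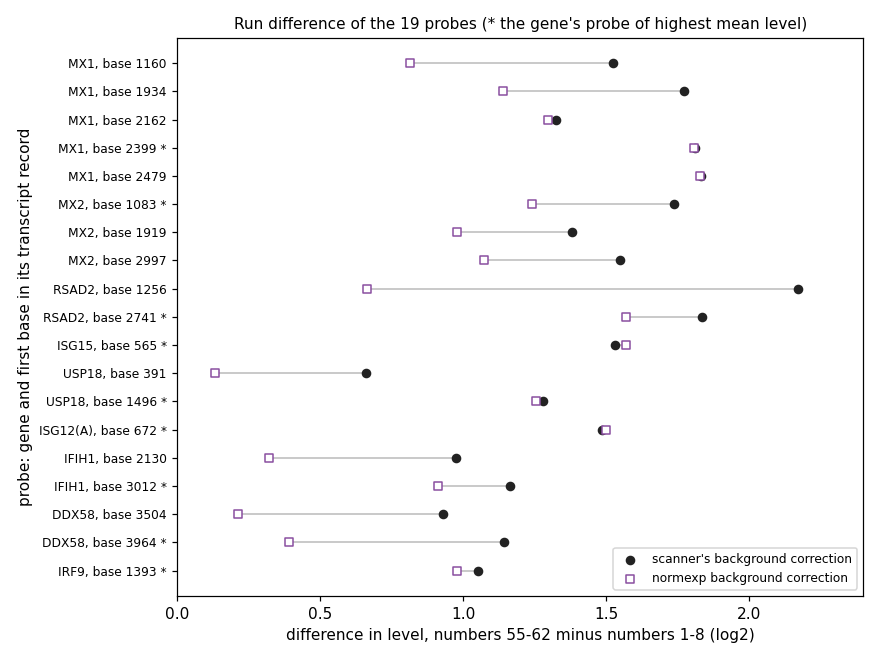
Difference between pigs numbered 55-62 and 1-8 (x axis, log2) for each of the 19 probes (rows, gene and first base in the transcript record), with the scanner's background correction (filled circles) and normexp (open squares) joined by a line. All 38 points lie above 0; the gap is widest for the RSAD2 probe at base 1256, from 2.17 to 0.66, and nearly closed for the MX1 probes at bases 2399 and 2479.

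The rest of the pathway was taken from a list of 140 other genes by role, of which 77 were on the array under a listed name and 70 were tested. The list was written with earlier results of these data known. Between the runs, 11 of the 70 were higher in pigs numbered 55-62 at an adjusted p under 0.05 and 0 were lower, where 2.19% and 1.37% of all genes were. Their median difference was 0.58, and 51 of 70 were positive. With normexp the median was 0.28 and 6 were called, PARP12, LGALS9, IFIT3, BST2, DDX60 and PTPN6, where 1.12% of all genes were. Leaving out 1 pig at a time gave 4 to 13 calls. The 4 came without low_RFI pig 4, where 1.18% of all genes were called higher, and the 13 without low_RFI pig 5, where 2.38% were. The count also moved by over 1.5 times to 5 without high_RFI pig 3, 6 without low_RFI pig 6 and 7 without high_RFI pig 1 or high_RFI pig 2. In these fits 1.2% to 1.57% of all genes were called higher, so the calls over all genes fell too.

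The ligands gave little. IFNG, interferon gamma, was the only ligand tested; its levels were -4.00, -3.55 and -2.56 in pigs numbered 55-62, against -3.77, -3.29 and -2.45 in pigs numbered 1-8, a difference of -0.14 ± 0.22 (SE, limma adjusted p = 0.741). The probe of IFNA1 was well above background on 1 array, and those of IFNB1 and IFNE on 0. None of the 5 receptor genes was called: IL10RB gave -0.30 ± 0.20, IFNGR2 -0.13 ± 0.10 and IFNGR1 -0.09 ± 0.10 (SE), with adjusted p-values of 0.400 to 0.627.

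Of 12 signal transducers and regulatory factors, 2 rose in pigs numbered 55-62, among them PTPN6, a phosphatase of blood cells. PTPN6 had levels of 0.46, 0.93 and 2.42 (lowest, median, highest) in pigs numbered 55-62, against -0.47, 0.04 and 0.66 in pigs numbered 1-8, and the runs overlapped. The difference was 1.13 ± 0.29 (SE, limma adjusted p = 0.0440). The call was lost in 12 of the 15 fits that left out 1 pig, with adjusted p-values up to 0.0836, and was kept without low_RFI pig 1, low_RFI pig 5 or high_RFI pig 7. It was also lost with no filter on dim probes. PTPN11, a related phosphatase, had a difference of -0.51 ± 0.14 (SE, adjusted p = 0.0607), and its other probe gave -0.17.

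Of 14 sensors and adaptors, 1 rose, TLR3, which senses double-stranded RNA in endosomes. Its levels were -1.72, -1.63 and -0.82 in pigs numbered 55-62, against -2.37, -2.13 and -1.99 in pigs numbered 1-8, with no overlap. The difference was 0.76 ± 0.14 (SE, limma adjusted p = 0.0109), and 0.42 with normexp (adjusted p = 0.112). DHX58 (LGP2), the relative of IFIH1 and DDX58, gave 0.56 ± 0.18 (SE, adjusted p = 0.0848), and ZBP1, a sensor of Z-form nucleic acids, 0.53 ± 0.18 (SE, adjusted p = 0.0996).

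Of 38 antiviral effectors and other targets, 8 rose: PARP12, LGALS9, BST2, IFIT1, IFIT3, IFIT5, DDX60 and PSME1. PARP12, an ADP-ribosyltransferase, had levels of 1.40, 2.15 and 3.07 in pigs numbered 55-62, against 0.57, 0.87 and 1.58 in pigs numbered 1-8, a difference of 1.27 ± 0.24 (SE, limma adjusted p = 0.0146). LGALS9, the lectin galectin-9, gave 1.23 ± 0.24 (SE, adjusted p = 0.0151), and BST2 (tetherin), which holds budding viruses at the cell surface, 0.98 ± 0.21 (SE, adjusted p = 0.0234). The other LGALS9 probes gave 1.19 and 0.54, and 0.64 and 0.30 with normexp. The other PARP12 probe gave 1.16, and 0.83 with normexp. The calls of PARP12, LGALS9, BST2 and TLR3 held in each of the 15 fits that left out 1 pig. Those fits share pigs, so they are not separate results. Within low_RFI pigs alone and within high_RFI pigs alone, 0 of the 70 pathway genes were called, and 51 and 54 were positive. Of all genes, 0.0644% and 0.236% were called higher in those smaller fits.

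Between the lines, 0 of the 70 pathway genes were called, where 0.0215% of all genes were, and their median difference was -0.01. An unadjusted p under 0.05 was found for 5 of the 70, close to the share of 7.13% over all genes. These 5 were TRIM26 at 0.56 ± 0.17 (SE, limma adjusted p = 0.460), TDRD7 at 0.46 ± 0.15 (SE, adjusted p = 0.475), JAK2 at 0.37 ± 0.15 (SE, adjusted p = 0.636), TRAF6 at 0.69 ± 0.28 (SE, adjusted p = 0.640) and SOCS3 at -1.0 ± 0.43 (SE, adjusted p = 0.681). SOCS3 is an inhibitor of cytokine signalling, and its mean level was -0.36 in low_RFI pigs and 0.64 in high_RFI pigs. TRIM26 gave 0.06 with normexp and JAK2 0.16. The second probe of JAK2 gave -0.02 and that of SOCS3 -0.06, while the 3 TDRD7 probes gave 0.41 to 0.46. The next by role were SAMHD1 at -0.29, MAVS at 0.33, STAT3 at 0.07 and TLR3 at -0.21, and the receptors IFNGR1 at -0.21, IFNAR1 at 0.04 and IFNGR2 at -0.03, with adjusted p-values of 0.724 to 0.998. Other probes gave -0.07, -0.01 and 0.23 for IFNGR1, -0.11 for IFNAR1, and -0.22, 0.16 and 0.35 for STAT3. The second probes of SAMHD1, MAVS and TLR3 kept their sign, at -0.27, 0.21 and -0.24. The ligand IFNG gave -0.0037 (adjusted p = 0.999).

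**Figure D5:**
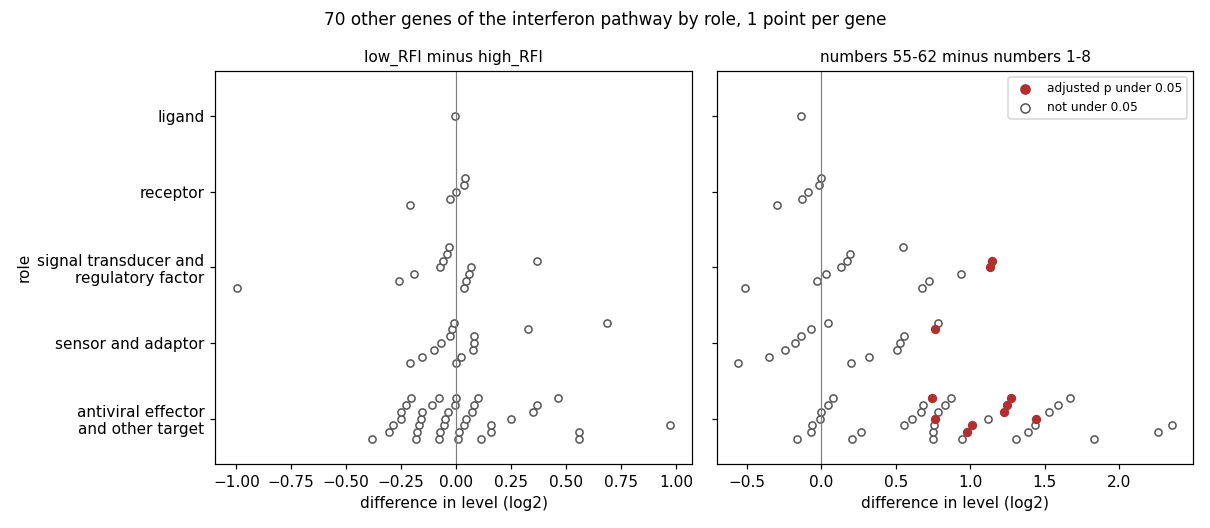
Difference in level (x axes, log2) of 70 other genes of the interferon pathway by role (rows, 1 point per gene, spread vertically for clarity) between low_RFI and high_RFI pigs (left) and between pigs numbered 55-62 and 1-8 (right); red points have an adjusted p under 0.05. On the left no point is red; on the right 11 are, 8 of them among the effectors, and the receptors lie between -0.30 and 0.

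Markers of white blood cells were set beside the members' run difference. Over all genes, 41.5% were positive and 2.19% were called higher in pigs numbered 55-62. T cell and NK cell markers were positive in 8 of 8 tested genes of 14 listed, with a median of 1.14. With normexp 7 of the 8 were positive and the median was 0.28, from -0.07 for KLRB1 to 0.43 for KLRK1. CD2, well above background on 9 arrays, was called at 2.05 ± 0.49 (SE, limma adjusted p = 0.0325), with 0.35 under normexp. Macrophage markers were positive in 4 of 4 tested of 11 listed, with a median of 0.71 (0.65 with normexp) and none called. The leukocyte median was 1.26, and 0.91 with normexp. General leukocyte markers were positive in 3 of 3 tested of 8, with LCP1 called at 1.43 ± 0.36 (SE, adjusted p = 0.0438), and SLA-DRA, an MHC class II chain and the 1 tested marker of 6 listed for plasmacytoid dendritic cells, was called at 1.09 ± 0.19 (SE, adjusted p = 0.0109).

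The log2 of each list's summed signal, relative to the array's 75th percentile, overlapped between the runs for the first 3 of these lists and not for SLA-DRA, which ran from 4.23 to 5.82 in pigs numbered 55-62, against 3.55 to 4.02 in pigs numbered 1-8. For T cell and NK cell markers it ran from 1.18 to 2.68 in pigs numbered 55-62, against 0.52 to 1.43 in pigs numbered 1-8. For macrophage markers it ran from 2.64 to 4.64 in pigs numbered 55-62, against 2.16 to 3.11 in pigs numbered 1-8. For leukocyte markers it ran from 0.72 to 3.17 in pigs numbered 55-62, against -0.01 to 1.46 in pigs numbered 1-8. The median differences were -0.09 for muscle fibre markers, -0.01 for endothelium and 0.07 for adipocytes, and no B cell or erythrocyte marker was tested. Their part in the members' run difference was not tested, and in whole muscle a different number of cells and a different amount of RNA per cell cannot be told apart.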

How the data were processed

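The authors' spot intensity values came, per the file headers, from Feature Extraction 10.7.3.1 (protocol GE1_107_Sep09), background-subtracted and detrended, without normalization between arrays. Per the labels, 150 ng of RNA per pig was amplified and labelled with Cy3. The deposited table holds the authors' log2 values (R 2.10.0, per the submitters' processing notes). On all 29364 rows these matched log2 processed signal minus the array median to within 4.93e-08. That table served only as an alternative.

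From the scanner files, control spots and non-uniformity-flagged spots were left out and spots of a probe averaged. Log2 signal minus the array's 75th percentile is the level. A probe was tested when well above background on at least 7 of 15 arrays with at least 4 values per line (31984 of 43603). Names came from the files and RefSeq, which gave 12167 probes a symbol. A gene is its tested probe of highest mean level. Limma 3.58.1 in R 4.3.3 (statmod 1.5.0), checked on simulated data, gave two-sided tests with Benjamini-Hochberg adjustment over 4655 genes, called at 0.05, for line, for number run with line as covariate, and for their interaction. The number of arrays limits the precision. The labels do not say whether pigs share a litter or pen.

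The members and gene lists were chosen with earlier results of these data known. The text names all members, up to 3 pathway genes per role of smallest p in each comparison, and the 8 genes nearest the members' mean; 1 called pathway gene is not reported here. The other called pathway genes, CD2, KLRB1, KLRK1, LCP1, SLA-DRA and MB were named after their values were seen. Alternatives are listed in the closing section, and run differences within slides were added after seeing the data. The labels' replicate numbers were not used as a block.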

Additional observations from a re-analysis of the deposited data

Results flagged for a closer look

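Among the 9 genes, the pigs of each line, each number run and each line within a run, other than the 3 low_RFI pigs numbered 55-62, were examined for a pig far from the rest of its group, which made 63 groups. One stood out: IRF9 in the 4 high_RFI pigs numbered 55-62, where high_RFI pig 5 lay at 1.98 and the next pig at 1.12, a gap that took up 0.863 of the group's whole range. Chance marks about 1 group in 20 by this measure.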

How the results depend on the processing

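Each pig counts as 1 of 7 or 8 values, and no line difference of a member passed the threshold under any of 21 alternatives or with any of 15 pigs left out (smallest limma adjusted p 0.838). Some exceeded their SE, such as ISG12(A) at -0.43 ± 0.42 without low_RFI pig 6. All 180 run differences of members under 20 alternatives, and all 135 with a pig left out, stayed positive. These genes were chosen by that contrast and the fits share pigs, so the counts are not of separate results. The cause of each change below was not tested.

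Over all genes, the line comparison called 1 gene (332 at an unadjusted p under 0.05) and 0 with normexp, median centring, the deposited values, no filter, every probe, slide or number run as a fixed block, within either run or within any slide; leaving out a pig gave 0 to 2, with 2 without low_RFI pig 2 or high_RFI pig 5, 1 without low_RFI pigs 5 or 6 or high_RFI pig 6, and 0 without any other. With the replicate number as a block it called 0. Same-numbered pigs correlated at -0.04 to 0.31, over 0.1 in 5 of 7 pairs, and 1 of 7 matched its own number best. Likeness of expression cannot show whether the numbers pair the animals. In both lines, replicate numbers 1 to 4 belong to the 1-8 run and higher ones to the 55-62 run. The replicate block thus also takes in the number run. The run comparison called 166, and 70 with normexp, 298 and 290 with slide as a fixed and a random block, 334 with array weights, 728 over every tested probe, 4 within low_RFI and 11 within high_RFI. It called 0 within slides 1, 3 and 4 and 47 within slide 2 (chosen after seeing the data), and 77 to 227 with a pig left out (77 without low_RFI pig 4, 90 without high_RFI pig 3, 95 without high_RFI pig 4, 96 without low_RFI pig 2, 100 to 109 without high_RFI pig 1, high_RFI pig 8, low_RFI pig 7 or low_RFI pig 6, and 227 without low_RFI pig 1). The interaction called 0 throughout (262 at an unadjusted p under 0.05).

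Line differences that changed sign were, with normexp, DDX58 -0.0888, IFNAR1 -0.0642, IFNGR2 0.0234 and STAT3 -0.00461; with quantile normalization, MX1 -0.00480; with median centring, IFNG 0.00199; with the mean over probes, DDX58 -0.00938 and IFNAR1 -0.0322; with array weights, IFNG 0.0683, IFNGR2 0.0175 and USP18 -0.0258; with slide as a fixed block, IFNG 0.0814, MX1 -0.0179 and USP18 -0.0154, and as a random block IFNG 0.00388; with the replicate block, IFNG 0.00285; with number run as a block, IFIH1 0.0226 and RSAD2 0.0591. Within 55-62 these were IFNG 0.00422, IFNGR2 0.0174, ISG12(A) 0.0979 and STAT3 -0.0322, and within 1-8 IFIH1 0.116, IFNAR1 -0.0670, IRF9 0.00548, ISG15 0.00582, MX2 0.497 and RSAD2 0.329. Within slide 1 they were IFIH1 0.575, IFNG 0.644, IRF9 0.502, ISG12(A) 0.312, ISG15 0.306, MX2 0.131 and RSAD2 0.447. Slide 2 sets low_RFI pig 1 alone against high_RFI pig 2, both numbered 1-8, and high_RFI pig 5, numbered 55-62. Line and number run are therefore mixed there. Within slide 2 the line differences that changed sign were DDX58 -1.04, IFNAR1 -0.0440, MX1 -3.52, STAT3 -0.106 and USP18 -1.10. Within slide 3 they were IFIH1 0.0426, IFNAR1 -0.0118, IFNG 0.364, IFNGR2 0.0302, IRF9 0.0809, ISG12(A) 0.200, ISG15 0.346, MAVS -0.358, MX2 0.247 and RSAD2 0.336. Within slide 4 they were DDX58 -0.0868, IFNGR2 0.239, JAK2 -0.117, SOCS3 0.143 and USP18 -0.270. Run differences that changed sign were IFNGR1 within low_RFI (0.0159) and slide 4 (0.146), and IFNG (0.215) and IL10RB (0.618) within slide 2.

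With a pig left out, the line difference ran from -0.33 to 0.21 for RSAD2, -0.42 to 0.12 for ISG15, -0.23 to 0.54 for MX1, -0.34 to 0.13 for MX2, -0.15 to 0.24 for USP18, -0.27 to 0.12 for IFIH1, -0.058 to 0.30 for DDX58, -0.32 to 0.072 for IRF9, -0.43 to 0.088 for ISG12(A), -0.0081 to 0.077 for IFNAR1, -0.073 to 0.019 for IFNGR2 and -0.10 to 0.12 for IFNG.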

Other observations

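OAS1, an antiviral enzyme that responds to double-stranded RNA, was named after its values were seen. Both of its tested probes gave 1 far lower pig, high_RFI pig 3 of the 1-8 run: the level was -3.49 on 1 probe, where the next lowest of all pigs lay at 0.67, and -4.64 on the other, where the next lowest lay at -0.76. Low_RFI pig 1 was the lowest pig on all 5 MX1 probes, by gaps that differed between probes: it lay at -0.40 on the probe at base 2479, where the next lowest lay at 0.75, and at -0.0077 on the probe at base 2162, where the next lowest lay at 0.058. On 1 of the OAS1 probes that pig lay at 0.76, within the range of the other pigs of its run.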
